A study of Mus musculus with 6 samples.

Results

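The TRIM (tripartite motif) genes studied here were the 60 genes whose symbol in the deposited table is Trim followed by a number and at most 1 further letter, and which have a transcript cluster (the probes the array reports together as 1 gene) that carries no other gene symbol. They are 60 of 23385 genes with such a cluster. Where a gene had several, the one with the highest mean log2 level was used. The rule for symbols and clusters uses no measured difference, but the family was chosen with earlier results of these data known. The RNA came from 4T1, a carcinoma line of the mouse mammary gland that is labelled as lacking the oestrogen receptor, the progesterone receptor and HER2. The cells had been cultured for 24 h with macrophages grown from mouse bone marrow and polarised to a pro-inflammatory (PI, 3 arrays) or an anti-inflammatory (AI, 3 arrays) state. Macrophages carrying CD11b were then held back on a magnetic column and RNA was taken from the flow-through. Each array of a group used macrophages of a different mouse, while all tumour cells were of 1 line, and no array of 4T1 cells alone is compared. The labels do not give the mouse strain or age or the agents used for polarisation.

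Most TRIM proteins are ubiquitin ligases. They are built from a RING domain, which recruits the ubiquitin-charged E2 enzyme, 1 or more B-boxes and a coiled coil, and they differ in the domain at the C-terminal end, which often picks the substrate. A group of them takes part in antiviral defence and is itself induced by interferons. Others act on chromatin, microtubules, muscle or development. Not every member carries the RING domain, and Trim14, Trim16, Trim29, Trim44 and Trim66 are counted among those that lack it.

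Promoter windows are shown for the 5 TRIM genes with the highest PI over AI values. A motif of interferon-responsive promoters stands in 4 of them and not in Trim42. Trim25, which has neither motif searched, is shown as well because it is known as an interferon-induced gene. The sequences are RefSeq's for build GRCm38.p6 and run 5′ to 3′ along the gene's strand from 250 bases before the start site to 50 bases into the transcript. Trim5 is included because it shares a transcript cluster with Trim12c. Capitals mark matches to the core of the interferon-stimulated response element, which is bound by interferon regulatory factors, written GAAA, any 2 bases and GAAA or, on the other strand, TTTC, any 2 bases and TTTC.
Trim21, chr7:102565433-102565732, minus strand: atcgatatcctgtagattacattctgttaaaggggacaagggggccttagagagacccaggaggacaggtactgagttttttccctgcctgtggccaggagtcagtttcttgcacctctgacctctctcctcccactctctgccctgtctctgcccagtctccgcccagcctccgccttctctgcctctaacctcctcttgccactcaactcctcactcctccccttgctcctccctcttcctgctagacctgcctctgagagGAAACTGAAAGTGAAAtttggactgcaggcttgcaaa
Trim30a, chr7:104465144-104465443, minus strand: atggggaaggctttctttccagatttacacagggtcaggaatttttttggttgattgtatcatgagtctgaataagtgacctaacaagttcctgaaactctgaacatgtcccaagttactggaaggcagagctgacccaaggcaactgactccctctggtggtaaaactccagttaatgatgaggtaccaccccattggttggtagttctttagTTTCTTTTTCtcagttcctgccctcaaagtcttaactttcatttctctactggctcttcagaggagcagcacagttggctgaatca
Trim12c, chr7:104353300-104353599, minus strand: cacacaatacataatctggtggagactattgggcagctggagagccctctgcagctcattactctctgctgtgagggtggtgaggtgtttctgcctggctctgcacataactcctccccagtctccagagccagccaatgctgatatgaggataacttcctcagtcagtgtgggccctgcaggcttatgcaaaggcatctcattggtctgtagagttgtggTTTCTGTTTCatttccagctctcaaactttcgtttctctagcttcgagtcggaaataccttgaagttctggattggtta
Trim5, chr7:104288057-104288356, minus strand: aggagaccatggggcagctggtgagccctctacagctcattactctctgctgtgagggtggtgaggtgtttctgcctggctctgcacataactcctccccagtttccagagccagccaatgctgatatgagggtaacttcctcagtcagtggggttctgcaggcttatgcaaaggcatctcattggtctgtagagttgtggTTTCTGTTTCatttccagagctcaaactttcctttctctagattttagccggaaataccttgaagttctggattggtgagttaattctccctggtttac
Trim34a, chr7:104244207-104244506, plus strand: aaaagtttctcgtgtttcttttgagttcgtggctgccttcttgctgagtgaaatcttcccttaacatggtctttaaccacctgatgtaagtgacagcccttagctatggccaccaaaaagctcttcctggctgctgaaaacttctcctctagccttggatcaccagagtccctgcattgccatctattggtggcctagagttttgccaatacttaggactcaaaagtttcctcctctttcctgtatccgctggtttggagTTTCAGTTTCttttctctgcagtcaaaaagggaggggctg
Trim42, chr9:97369909-97370208, minus strand: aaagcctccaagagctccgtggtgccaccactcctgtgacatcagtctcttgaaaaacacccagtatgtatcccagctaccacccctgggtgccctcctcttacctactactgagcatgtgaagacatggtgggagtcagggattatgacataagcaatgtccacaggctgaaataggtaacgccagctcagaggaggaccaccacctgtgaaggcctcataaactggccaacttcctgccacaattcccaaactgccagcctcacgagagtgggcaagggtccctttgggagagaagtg
Trim25, chr11:88999153-88999452, plus strand: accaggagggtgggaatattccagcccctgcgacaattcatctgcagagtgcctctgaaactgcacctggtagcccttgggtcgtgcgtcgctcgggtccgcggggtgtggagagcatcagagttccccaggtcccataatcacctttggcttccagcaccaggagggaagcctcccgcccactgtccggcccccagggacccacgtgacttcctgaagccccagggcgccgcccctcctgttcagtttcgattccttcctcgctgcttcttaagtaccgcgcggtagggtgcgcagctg

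In Trim21 a pair of overlapping matches lay inside the transcript, at bases 14 to 23 and 20 to 29 from the start site. RefSeq gives Trim30a a pair of windows, and the match lay at -36 to -27 in the one shown and at bases 3 to 12 of the transcript in the other, chr7:104446076-104446375. The match lay in Trim12c at -29 to -20, in Trim5 at -49 to -40, and in Trim34a at bases 11 to 20 of the transcript. The windows of Trim12c and Trim5 are close copies, with 263 of 300 bases identical in a global alignment, and so are those of Trim30a and its neighbour Trim30d, with 277 of 300. Those of Trim21 and Trim25 shared 155.

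No TRIM gene passed the test between PI and AI. Of the 60, 0 had an adjusted p under 0.05 in limma, in either direction, against 17 of all 23385 genes, or 0.0727%, all higher in PI. At an unadjusted p under 0.05 limma had 6 TRIM genes, all higher in PI. Of all genes 7.36% were under this threshold, 4.05% higher and 3.31% lower. In these 6 genes, Trim21, Trim30a, Trim42, Trim12c, Trim34a and Trim9, every PI array lay above every AI array, while such separation in this direction was found for 5.85% of all genes. No TRIM gene was separated in the lower direction, against 7.32% of all genes, and 6 of 60 in either direction was a smaller share than the 13.2% of all genes. After each array was centred on its median gene, 5 were separated upwards and 0 downwards, as Trim34a then overlapped. After each array was centred on its median TRIM gene, 4 were separated upwards and 2 downwards. In that case Trim34a, Trim12c and Trim9 overlapped and Trim75 became separated upwards. The shares of all genes separated after centring were not counted. The 3 largest differences were all towards PI. Trim30a, Trim12c and Trim21 were each at least 1.5-fold higher in PI, a size that 120 genes, or 0.513% of all tested, reached. No TRIM gene was 1.5-fold lower, against 0.133% of all genes.

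**Figure D1:**
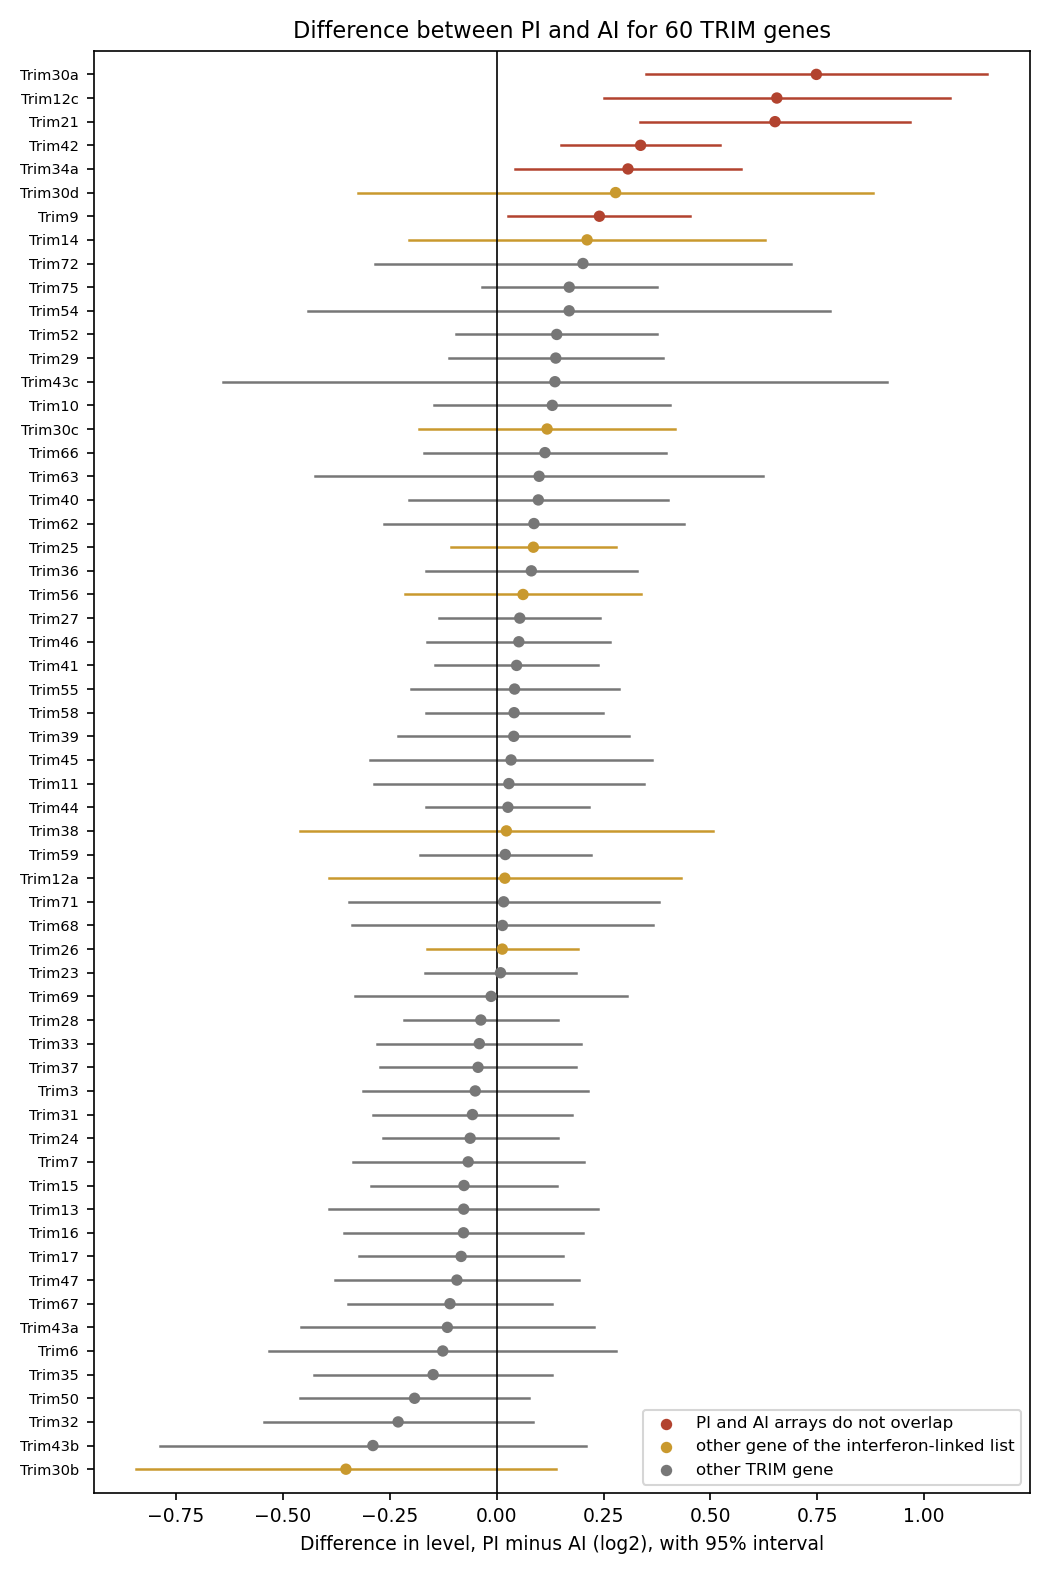
Difference in log2 level between PI and AI for the 60 TRIM genes, ordered by size, with points for the estimate and lines for limma's 95% interval. Trim30a, Trim12c and Trim21 lie between 0.65 and 0.75, and the other 57 genes lie between -0.35 and 0.34.

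Trim21, a ligase that also serves as a receptor for antibody carried into the cytosol by viruses (transcript cluster 17494101, Entrez 20821), had log2 levels of 8.27, 8.73 and 8.73 in PI replicates 1 to 3 and of 7.95, 7.98 and 7.84 in AI replicates 1 to 3. PI replicate 1 was the lowest of the PI arrays and was still above each AI array. The difference was 0.65 on the log2 scale, or 1.57-fold (95% interval 1.26 to 1.95, limma adjusted p = 0.351). Its spread between PI arrays (SD 0.27, n = 3) was larger than that between AI arrays (SD 0.07, n = 3). Trim21 was the only TRIM gene to pass under any of the 15 other settings. This was with an intensity trend and robust variance (adjusted p = 0.0417), where 76 genes, or 0.325% of all, passed.

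Trim30a, which in mice dampens Toll-like receptor signals to NF-kB (cluster 17494394, Entrez 20128), had PI levels of 5.88, 6.01 and 5.47 and AI levels of 5.15, 4.76 and 5.20. Here PI replicate 3 came closest to the AI arrays. The difference of 0.75 was the largest of the 60, or 1.68-fold (95% interval 1.27 to 2.22, limma adjusted p = 0.417). Trim12c, a mouse relative of the TRIM5 of primates, which binds retroviral capsids (cluster 17481307, Entrez 319236), had PI levels of 6.94, 6.97 and 6.43 and AI levels of 6.18, 6.32 and 5.88. PI replicate 3 was again the lowest of its group, a little above the highest AI array. The difference was 0.66, or 1.58-fold (95% interval 1.19 to 2.08, limma adjusted p = 0.494).

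Trim34a, a SPRY-domain member of the same gene run (cluster 17481274, Entrez 94094), had PI levels of 5.25, 5.38 and 5.61 and AI levels of 5.01, 5.22 and 5.09, so that the groups were separated by a narrow gap. Its difference was 0.31 (95% interval 0.04 to 0.57, limma adjusted p = 0.650). Trim42 (cluster 17520604, Entrez 78911) had PI levels of 3.87, 3.97 and 4.00 and AI levels of 3.56, 3.67 and 3.60, a difference of 0.34 (limma adjusted p = 0.423). Trim9, a ligase known from neurons (cluster 17281748, Entrez 94090), had PI levels of 3.94, 3.86 and 3.78 and AI levels of 3.68, 3.49 and 3.70, a difference of 0.24 (limma adjusted p = 0.658). The signals of Trim42 and Trim9 were low, at percentiles 34.8 and 33.9 of the genes' clusters, against 84.2 for Trim21. The deposited tables hold no detection call, so that it was not tested whether either is above background.

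**Figure D2:**
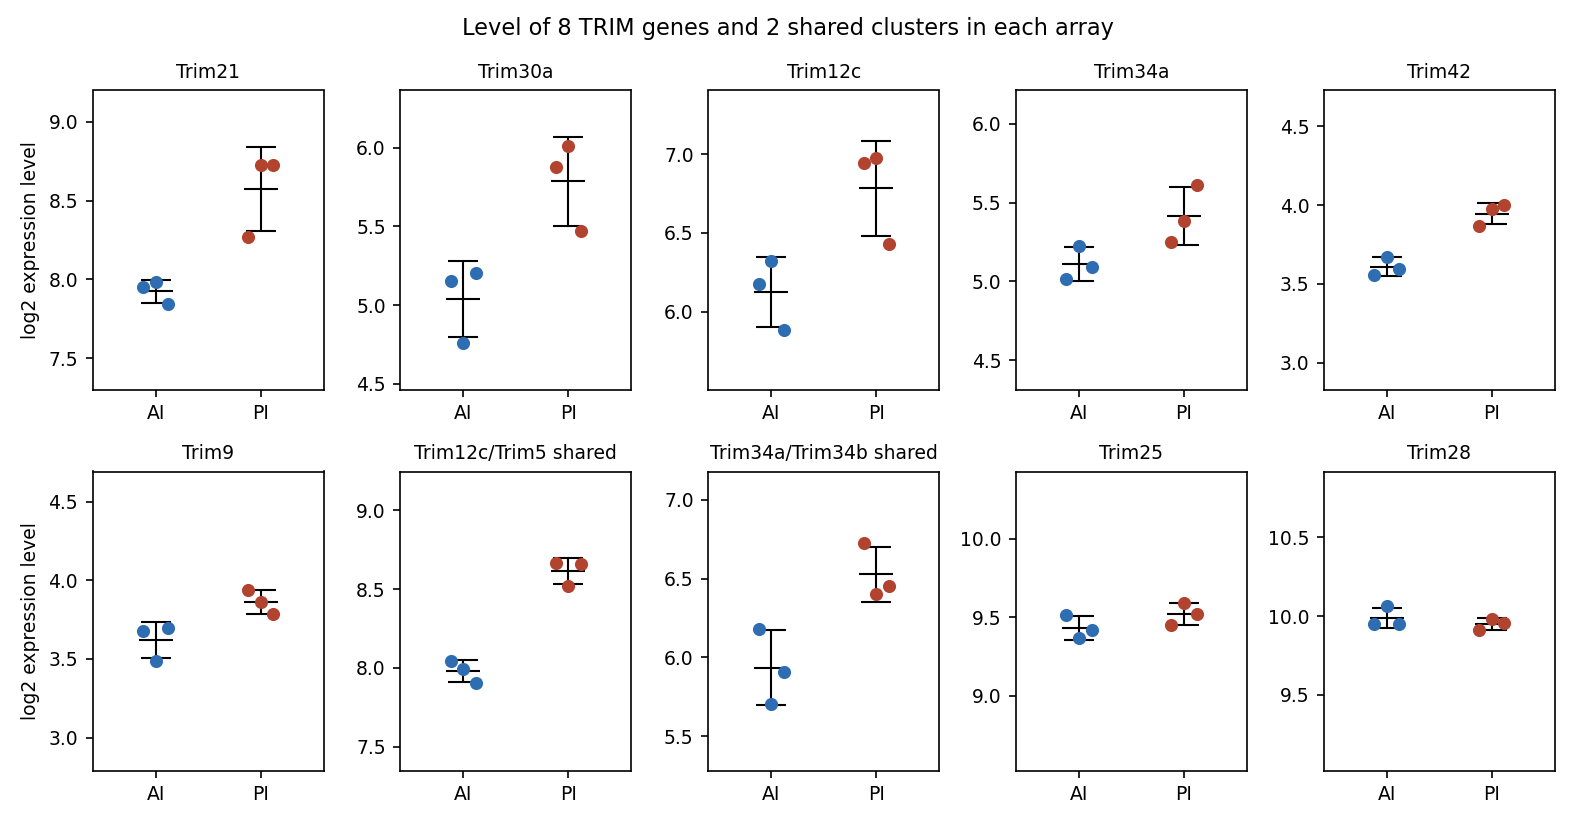
Log2 expression level in each AI (blue) and PI (red) array for 8 TRIM genes and 2 clusters shared by a pair of TRIM genes, with bars for the mean and SD of 3 arrays. All panels span the same number of log2 units. The PI and AI arrays are apart in Trim21, Trim30a and Trim12c and in both shared clusters, and overlap in Trim25 and Trim28.

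Most of the family lay close to 0. The median difference of the 60 genes was 0.03, with a middle range from -0.06 to 0.12, against a median of -0.01 over all genes. The family's median turned negative when each array was centred on its median gene (-0.01) or on its median TRIM gene (-0.04). The median over all genes fell as well, to -0.05 and -0.08, so the family's median stayed above it. In all, 39 TRIM genes had positive values and 21 negative, a split that became 26 to 34 and 22 to 38 under these centrings. Over all genes the split without centring was 11069 to 12316. The 54 members with an unadjusted p of 0.05 or more in limma had values from -0.35 to 0.28. By this choice their 95% intervals include 0. The interval lay within a 1.5-fold difference in either direction for 46 and within a 2-fold difference for all 54. Over all 60 members these counts were 49 and 58. When the median TRIM gene of each array was subtracted, the differences were 0.68 for Trim30a, 0.59 for Trim12c and 0.58 for Trim21. This takes the same amount from the difference of every gene, so it leaves their order unchanged. The median SD between arrays of a group was 0.14 for TRIM genes in PI and in AI, and 0.12 for all genes in both.

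Of 15 TRIM genes listed as linked to interferon, a list drawn up with earlier results of these data known, 13 had a cluster of their own. Of these, 4 were separated upwards, Trim21, Trim30a, Trim12c and Trim34a, and 0 downwards, against 5.85% and 7.32% of all genes. Trim34a overlapped when arrays were centred on the median gene or on the median TRIM gene. Trim12c overlapped in the latter case only. The median of the 13 was 0.12. Positive values were found in 12 of them, or in 8 after centring on the median TRIM gene, when Trim12a, Trim26, Trim38 and Trim56 joined Trim30b below 0. Trim25, which attaches ubiquitin chains to the RNA sensor RIG-I (cluster 17255026), is also known as an interferon-induced gene, and its levels overlapped. They were 9.45, 9.59 and 9.52 in PI and 9.51, 9.37 and 9.42 in AI, a difference of 0.09 (95% interval -0.11 to 0.28, limma adjusted p = 0.848). This interval excludes a 1.5-fold difference. Whether the value of Trim25 differs from those of Trim21 and Trim30a was not tested. Trim56, a ligase linked to nucleic acid sensing, had a difference of 0.06, which turned negative after centring on the median TRIM gene, and Trim14, an adaptor in signalling by the mitochondrial protein MAVS, one of 0.21 with an interval of -0.20 to 0.63. The 47 members outside the list had a median of 0.02. The contrast with the listed genes was not tested, as the list was drawn up with earlier results known.

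Of the 6 genes with separated arrays, Trim34a, Trim12c and Trim30a lie in 1 run of TRIM genes, with other members between them. In RefSeq, a run of 11 TRIM genes on chromosome 7, of which 1 is a pseudogene, holds, in order, Trim6, Trim34a, Trim5, Trim12a, Trim34b, Trim12c, Trim30b, Trim30c, Trim30a, Trim30d and Trim30e-ps1, with 1 other protein-coding gene between them, the predicted Gm38525. Of these, 8 were members with a cluster of their own, and 6 of the 8 had positive values, or 5 with centred arrays. The run was not uniform. Beside the 3 genes with separated arrays stood Trim6 at -0.13, Trim12a at 0.02, Trim30c at 0.12 and Trim30b at -0.35, all with 95% intervals that include 0. Trim30d reached 4.56 in PI replicate 2 and lay between 3.52 and 4.04 in the other PI and AI arrays, with a difference of 0.28 and an interval of -0.32 to 0.88. Signals of Trim30c and Trim12a were among the lowest of the family, at percentiles 9.84 and 18.5. Trim30a to Trim30d, and Trim12a, Trim12c and Trim5, are related copies, and their probes may pick up RNA of one another, so that the split of signal between them is uncertain. Trim21 lies on the same chromosome outside this run.

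A further 8 clusters list a TRIM symbol together with another gene, and 7 TRIM genes, Trim2, Trim5, Trim8, Trim34b, Trim60, Trim61 and Trim65, were found only on such clusters. None of the 8 passed when all 41345 clusters were tested with limma, of which 8, or 0.0193%, passed. The cluster shared by Trim12c and Trim5 (17481305) had PI levels of 8.67, 8.52 and 8.66 and AI levels of 8.04, 7.99 and 7.91. Its arrays were tightly grouped and well apart, with a difference of 0.63, or 1.55-fold (95% interval of the difference 0.42 to 0.84, limma adjusted p = 0.235). The second cluster shared by these genes (17494325) had PI levels of 6.73, 6.68 and 6.87 and AI levels of 6.41, 6.41 and 6.73, which overlapped, with a difference of 0.24.

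The cluster shared by Trim34a and Trim34b (17481284) had PI levels of 6.73, 6.40 and 6.45 and AI levels of 6.18, 5.71 and 5.91, a difference of 0.60 (limma adjusted p = 0.631). The groups did not overlap, as in 12.5% of all clusters. A second cluster of Trim34a alone, with a mean signal near 2.5 in both groups (2.52 in PI and 2.46 in AI), had a difference of 0.06. Clusters of Trim34a alone therefore gave values of 0.31 and 0.06, and the value of 0.60 is from a cluster whose signal cannot be assigned to 1 gene. The second cluster of Trim42 had PI levels of 3.78, 3.53 and 3.54 and AI levels of 3.35, 3.39 and 3.47. Its groups were separated as well, with a difference of 0.21 (limma adjusted p = 0.787). The other shared clusters had differences from -0.17 (Trim47 and Trim65) to 0.11 (Trim2 and C630001G18Rik), with -0.08 for Trim8 and Gm9798, and their signal cannot be assigned to 1 gene.

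**Figure D3:**
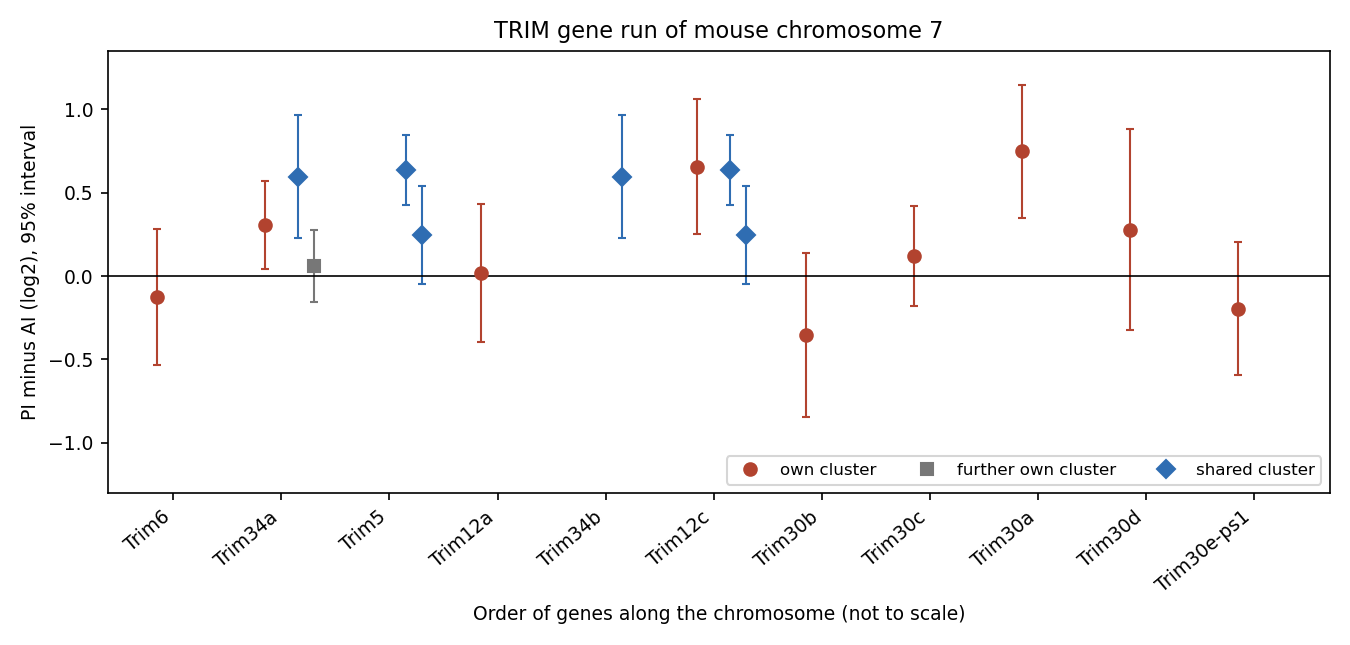
Difference in log2 level, PI minus AI, with 95% intervals, for the run of TRIM genes on chromosome 7 in RefSeq order. Circles are clusters of 1 gene, diamonds clusters shared by a pair of genes (drawn at each) and the square a second Trim34a cluster. The intervals of the Trim34a, Trim12c and Trim30a circles and of 2 shared clusters lie above 0. Those of Trim6, Trim12a, Trim30b, Trim30c, Trim30d and Trim30e-ps1, of the other cluster shared by Trim12c and Trim5 and of the square include 0. Intervals of the diamonds, the square and Trim30e-ps1 are from the test of all 41345 clusters. The others are from the test of 23385 genes.

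Motif matches in the promoter windows were compared with the differences as a description. Of the 60 genes, 47 were matched to 1 or more windows by gene identifier. A response element core stood in the windows of 7 genes, or 14.9%, against 3.99% of all 27025 genes with windows (3.44% of all 32851 windows). The 7 were Trim12a, Trim12c, Trim21, Trim26, Trim30a, Trim30d and Trim34a, and all had positive values, from 0.01 for Trim26 to 0.75 for Trim30a, with a median of 0.31. Trim26 (0.01) and Trim12a (0.02) turned negative when arrays were centred. Of the 7, 4 had separated arrays, against 2 of the 40 genes with a window and no such match, Trim42 and Trim9. Trim34a overlapped when arrays were centred on the median gene or on the median TRIM gene. Trim12c and Trim9 overlapped in the latter case only, in which Trim75 became separated upwards. Some windows of the 7 genes are copies of one another, so these genes are not independent.

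Over all genes tested, TRIM genes included, the shares differed in the same direction. Of 661 genes with a response element core, 12.7% were separated upwards and 3.93% were at least 1.5-fold higher in PI, against 5.46% and 0.324% of 16377 genes without one. The gamma-activated site, TTCNNNGAA on either strand, to which dimers of STAT proteins bind, stood in the windows of 6 TRIM genes, or 12.8%, against 9.55% of all genes with windows. These were Trim15, Trim30c, Trim31, Trim38, Trim45 and Trim46, with values from -0.08 to 0.12 and 0 with separated arrays. Of all 1555 tested genes with this site, 7.33% were separated upwards and 6.69% downwards, so few of 6 genes would be at these shares. No TRIM window held both motifs, so their matches do not overlap in these genes. A match shows only that the letters are present.

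**Figure D4:**
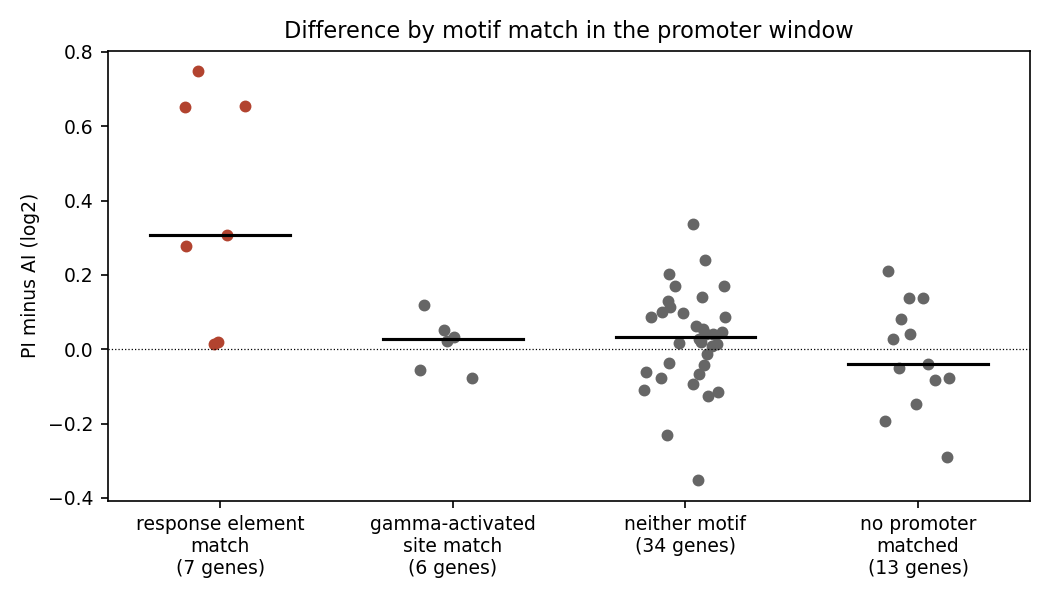
Difference in log2 level, PI minus AI, for TRIM genes grouped by motif matches in their promoter windows, 1 point per gene, with a line at the median. The medians are 0.31 for genes with a response element match, 0.03 for those with a gamma-activated site, 0.03 for those with neither and -0.04 for those without a matched window.

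By the domain at the C-terminal end, the values above 0.3 were found among SPRY-domain genes and in Trim42. The SPRY class holds 32 of the 60 members. Of these, 4 were separated upwards and 0 downwards, against 5.85% and 7.32% of all genes. In this class 0 passed the test and the median was 0.03. The rest of this class lay between -0.35 (Trim30b) and 0.28 (Trim30d) with overlapping arrays. Trim27, which acts as a transcriptional repressor and has among the highest signals of the family, had differences of 0.05 and -0.01 in its 2 clusters. Trim43b, one of 3 closely related copies whose signal cannot be split with certainty, had a value of -0.29. The class with microtubule-binding and SPRY domains had 4 members, with Trim9 described above, the neuronal Trim67 at -0.11 and Trim36 at 0.08. The muscle RING finger genes had values of 0.17 for Trim54, 0.10 for Trim63 and 0.04 for Trim55. Of these 3, 0 were separated, against 13.2% of all genes in either direction. In the class without a named domain, Trim40 had a value of 0.10, Trim56 0.06 and Trim31, a ligase for MAVS, -0.06. Values for Trim55 turned negative under centring.

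Trim28, Trim24 and Trim33, which act on chromatin, had narrow intervals around 0. Trim28, the corepressor that KRAB zinc-finger proteins bring to their targets, had PI levels of 9.91, 9.98 and 9.96 and AI levels of 9.95, 10.06 and 9.95, which overlapped. Its difference was -0.04 with a 95% interval of -0.22 to 0.14. Trim24, a cofactor of nuclear receptors, had a difference of -0.06 and Trim33, a regulator of SMAD4, one of -0.04. Of 8 partner genes of Trim28, 0 passed the test, with a median of -0.01. Values were 0.11 for Cbx3, which encodes a heterochromatin protein, and 0.07 for Chd4, a remodelling ATPase. Only Cbx3, or 1 of the 8, had arrays separated upwards, against 5.85% of all genes.

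Among members with NHL repeats, Trim32, a ligase known from muscular dystrophy, had a difference of -0.23 (95% interval -0.55 to 0.08), Trim3 one of -0.05 and Trim71, an RNA-binding regulator of stem cells, one of 0.02. Trim37, a ligase with a MATH domain, had a value of -0.04 and Trim23, which ends in an ARF-like GTPase domain, one of 0.01. Trim45 had a value of 0.03. The membrane-anchored ligases Trim13 and Trim59 had values of -0.08 and 0.02. Members lacking a RING domain had values of 0.14 for Trim29, 0.11 for Trim66, 0.03 for Trim44 and -0.08 for Trim16, beside Trim14. The values for Trim23, Trim45, Trim59, Trim71 and Trim44 turned negative when arrays were centred. Trim75, with a value of 0.17, and Trim52, with 0.14, had low signal, at percentiles 7.14 and 15.5.

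Family members whose names fall outside the rule did not pass either. Of 7 such genes, 0 passed and 0 were separated, against 13.2% of all genes separated in either direction, with a median of 0.09. Pml, which forms nuclear bodies and is known as an interferon-induced gene, had a value of 0.17 (limma adjusted p = 0.745), and Mid2, which binds microtubules, one of 0.14. Of 16 listed enzymes that charge or carry ubiquitin for ligases, 13 were measured and 0 passed. Arrays were separated upwards in 2 and downwards in 3, against 5.85% and 7.32% of all genes. Ube2l6, the E2 enzyme for the ubiquitin-like protein ISG15, came closest, at 0.71 (limma adjusted p = 0.0605), and Ube2v2, a cofactor of Ube2n in making ubiquitin chains, had a value of 0.41. Its relative Ube2v1, also a cofactor of Ube2n and chosen after its values were seen, had one of -0.58 (limma adjusted p = 0.597). Of 17 partners in RNA and DNA sensing, 0 passed, while 5 were separated upwards and 2 downwards, against the same shares of all genes. The largest of these values were 0.83 for Irf7, a transcription factor for interferon genes, and 0.40 for Ifih1, a sensor of viral RNA. Of 13 genes from interferon receptors to their transcription factors, 1 passed higher in PI and 0 lower, against 0.0727% of all genes passing. Arrays were separated upwards in 3 of the 13 and downwards in 2, against 5.85% and 7.32% of all genes. Irf1, chosen after its values were seen, had a value of 0.87 (limma adjusted p = 0.0541).

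In these bulk samples a difference in the share of cells of a type and a difference in RNA per cell cannot be told apart. Of 18 macrophage markers, 0 passed the test, 12 had positive values and the median was 0.02. Their summed signal on the linear scale was 679 to 748 in the PI arrays and 749 to 772 in the AI arrays. This order rested on Cd14. Without it, a choice made after seeing the data, the other 17 summed to 410 to 425 in PI and 386 to 423 in AI, which overlapped. Only 2 of the 18 lay above the level of the median gene, and Itgam, which encodes CD11b, had low signal (percentile 14.4), with 2.98 in PI and 2.97 in AI. Mpeg1 had higher values in every PI array (difference 0.58) and Cd14 lower ones (-0.23). The part of macrophage RNA in the TRIM values was not tested. Of 8 epithelial markers, 6 had negative values and 3 were separated downwards, Krt14, Epcam and Krt8, against 7.32% of all genes. Their median was -0.17 and 0 passed the test. Krt14, a keratin of basal epithelial cells, had a difference of -0.41 (limma adjusted p = 0.616) and Epcam, an epithelial adhesion molecule, one of -0.19 (limma adjusted p = 0.701). The part of these differences in the TRIM values was not tested. Levels for the receptors labelled as lacking were 5.39 in PI and 5.18 in AI for Esr1, 3.18 and 3.07 for Pgr and 7.78 and 7.93 for Erbb2, and without a background level their absence was not tested.

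In the authors' deposited table, 0 of the 60 genes had a q-value under 0.05 and the lowest q-value was 0.580. The same table gave a p-value under 0.05 to 5 of them. The share of all genes under this threshold was not counted for the authors' test, and in limma it was 7.36%.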

How the data were processed

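Values were log2 expression levels per transcript cluster, which the authors made with Affymetrix Expression Console and RMA, per the submitters' processing notes. Which versions, genome build and annotation they used is not given in the sources used here. Both deposited tables held the same values for 41345 clusters (0 differing). Per the file headers, 1 table adds a fold, a p-value and a q-value from the authors' own comparison. The fold is a ratio of AI over PI, equal to the ratio of group means within 1e-05 for all clusters. Unused sample columns numbered 0.

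Clusters with 1 symbol (24724) were kept, symbols were updated by Entrez identifier through RefSeq (GRCm38.p6, names and gene order only), and the cluster with the highest mean stood for each of 23385 genes. TRIM symbols changed by the update numbered 0. Differences, PI minus AI, were tested in R 4.3.3 with limma 3.58.1 (lmFit and eBayes, group as the only term, two-sided), with Benjamini-Hochberg adjustment over all genes and a threshold of 0.05. The fit was tested on simulated data. Promoter windows were searched in Python 3.11.15. The members and gene lists were chosen with earlier results of these data known. Named genes were TRIM genes with an unadjusted p under 0.05, Trim21, Trim25 and Trim30a, up to 3 of smallest p per domain class, the 3 of highest and of lowest signal, and those on shared clusters. For other lists they were the members past the test, or otherwise 2 of smallest p. Any other gene was named after its values were seen. A gene taken by this rule is not reported here by name. Precision is limited by the number of arrays, and the median 95% interval of a TRIM gene reached 0.28 to either side.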

Additional observations from a re-analysis of the deposited data

How the results depend on the processing

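All alternatives changed 1 choice at a time. The count of TRIM genes past the test stayed at 0 in 14 of 15 alternatives and was 1 (Trim21) with an intensity trend and robust variance. Leaving out 1 array gave 0 genes past the test each time. It gave 8 to 12 separated genes against 6 with all arrays (12 without AI replicate 1, 11 without AI replicate 3, PI replicate 1 or PI replicate 2, 10 without PI replicate 3). In each case more genes lay upwards than downwards, from 6 and 2 without AI replicate 2 to 11 and 1 without AI replicate 1. Fewer arrays make separation easier by construction, and the shares of all genes separated in these settings were not counted. The family's median lay between 0.00 and 0.06 without 1 array. Calls over all genes numbered 17, against 76 with trend and robust variance, 42 among 11692 genes above the median level, 5 with all clusters adjusted together, 2 in an unmoderated test, and 1 to 14 without 1 array (1 without PI replicate 2, 4 without PI replicate 3, 7 without AI replicate 1 or 3). The differences of Trim21 (0.57 to 0.80), Trim30a (0.61 to 0.91), Trim12c (0.53 to 0.83) and Trim34a (0.18 to 0.39) stayed positive in 15 alternatives, as did Trim42 (0.27 to 0.38) and Trim9 (0.17 to 0.28) in the 14 that keep these dim genes.

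PI and AI arrays share replicate numbers, but the labels do not say that a number marks 1 mouse. Deviations of same-numbered arrays correlated at 0.04, 0.01 and 0.06, and those of other pairs at -0.08 to 0.04. With the replicate block 0 TRIM genes and 1 gene of all passed (limma, Trim21 adjusted p = 0.611).

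Of the 33 named TRIM genes, 16 changed sign under 1 or more alternatives, with main values from -0.08 to 0.17, and the cause was not tested beyond the shift that centring itself makes. Centred on the median gene and on the median TRIM gene, values were -0.00053 and -0.026 for Trim55, -0.034 and -0.059 for Trim23, -0.026 and -0.052 for Trim71, -0.0088 and -0.034 for Trim45, -0.022 and -0.048 for Trim59 and -0.016 and -0.042 for Trim44. Trim56 was at -0.0064 in the second and Trim45 at -0.0011 with quantile normalization repeated. Without 1 array, ranges were -0.085 to 0.383 for Trim54, -0.103 to 0.283 for Trim63, -0.033 to 0.110 for Trim55, -0.022 to 0.043 for Trim23, -0.032 to 0.171 for Trim40, -0.108 to 0.025 for Trim31, -0.0095 to 0.170 for Trim56, -0.056 to 0.00065 for Trim28, -0.112 to 0.023 for Trim33, -0.121 to 0.049 for Trim3, -0.140 to 0.125 for Trim71, -0.107 to 0.018 for Trim37, -0.072 to 0.200 for Trim45, -0.226 to 0.039 for Trim13, -0.012 to 0.074 for Trim59 and -0.015 to 0.065 for Trim44. Without a detection call, values of dim genes may lie at background.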
